A study of Mus musculus with 9 samples.

Results

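The genes described here are 9 that encode titin and proteins of the Z-disc, the M-band and the thin filament of the sarcomere: Ttn, Myom1, Actn2, Ldb3, Myoz2, Csrp3, Nebl, Lmod2 and Smpx. They were taken by name from a microarray study of mouse heart cells, and all 9 were among the 19933 genes that had a probe of their own. Nebl had 2 such probes and the others 1, and the probe with the highest mean over all arrays stands for the gene. Messenger RNA of 3 mouse heart cell preparations, each in 3 biological replicates, was hybridised to Gene 1.0 ST arrays from Affymetrix. The first was cardiomyocytes from embryos, which carried the signal of an Nkx-YFP reporter, the second embryonic cardiac fibroblasts, the third adult cardiac fibroblasts. No treatment is named for any group. The sources used here do not give embryonic stage, adult age, strain, sex, pooling of animals, or how the fibroblasts were purified and whether they were cultured. The study's question was which fibroblast factors make myocytes divide, and for muscle genes the comparisons ask how far the fibroblast preparations stood from the cardiomyocytes.

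The sarcomere is the repeating contractile unit of striated muscle. Thin actin filaments are anchored at its borders in the Z-disc, where alpha-actinin links them, and thick myosin filaments are linked at its middle in the M-band. Titin, a giant elastic protein, runs from the Z-disc to the M-band and holds the thick filaments in register. In heart muscle these proteins carry force along the myofibril and serve as docking sites for signalling proteins. Fibroblasts build no sarcomeres, although they use related proteins in stress fibres and focal adhesions.

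Values are the authors' RMA values, read as log2, on which a difference of 1 is a doubling. Calls of higher or lower rest on a limma fit over all genes with a threshold of 0.05 on the adjusted p, and each difference is given with its standard error (SE). The SE of a gene comes from 1 estimate of spread that the 3 groups share. In the 9 genes the embryonic fibroblasts spread most, with a median SD of 0.60 against 0.09 in cardiomyocytes and 0.21 in adult fibroblasts. For these genes the SE and p-values of comparisons with the embryonic fibroblasts may thus be too small. The number of arrays limits the precision. Array medians lay between 7.602 and 7.651. Within a group, arrays correlated over all probes at 0.993 to 0.994 in the cardiomyocytes, 0.989 to 0.993 in the embryonic fibroblasts and 0.970 to 0.993 in the adult fibroblasts, where replicate 3 had the low values. Of 12 other cardiomyocyte markers, 9, such as Myh6, were higher in the cardiomyocytes than in the embryonic fibroblasts. The 3 not called there were Tnnt2, Actc1 and Myl2. Against the adult fibroblasts 12 of the 12 were higher in the cardiomyocytes. All 10 fibroblast markers were lower in the cardiomyocytes than in either fibroblast group. Of all genes, 11.1% were called higher and 10.3% lower in cardiomyocytes than in embryonic fibroblasts. Against adult fibroblasts these shares were 18.2% and 17.4%. The Nkx2-5 probe gave overlapping values in the 3 groups (8.15 to 8.41, 8.16 to 8.32 and 8.09 to 8.38), and did not tell them apart.

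All 9 genes followed the same order: highest in embryonic cardiomyocytes, intermediate in embryonic fibroblasts and lowest in adult fibroblasts. For each of them the 3 groups did not overlap on any array, a pattern met by 7.7% of all genes (19.8% for cardiomyocytes above embryonic fibroblasts, 16.1% for embryonic above adult fibroblasts and 21.7% for cardiomyocytes above adult fibroblasts). Embryonic cardiomyocytes exceeded embryonic fibroblasts in 9 of 9 genes by 1.36 to 2.18 log2 units, where 11.1% of all genes were called higher. Embryonic exceeded adult fibroblasts in 8 of 9, with 11.2% of all genes called higher, and the differences ran from 0.36 to 4.40. The exception was Ldb3. Cardiomyocytes exceeded adult fibroblasts in 9 of 9 genes by 1.83 to 5.90, where 18.2% of all genes were called higher. The median differences of the 9 genes were 1.50, 2.98 and 4.88, while those of all genes were 0.0003, -0.04 and -0.06. None of the 9 was called lower in any comparison, against 10.3%, 8.34% and 17.4% of all genes, and 8 were called higher in both steps, against 4.7%. These comparisons share groups, so they are not separate pieces of evidence. In bulk samples such as these, fewer cells of a type and less RNA per cell cannot be told apart.

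**Figure D1:**
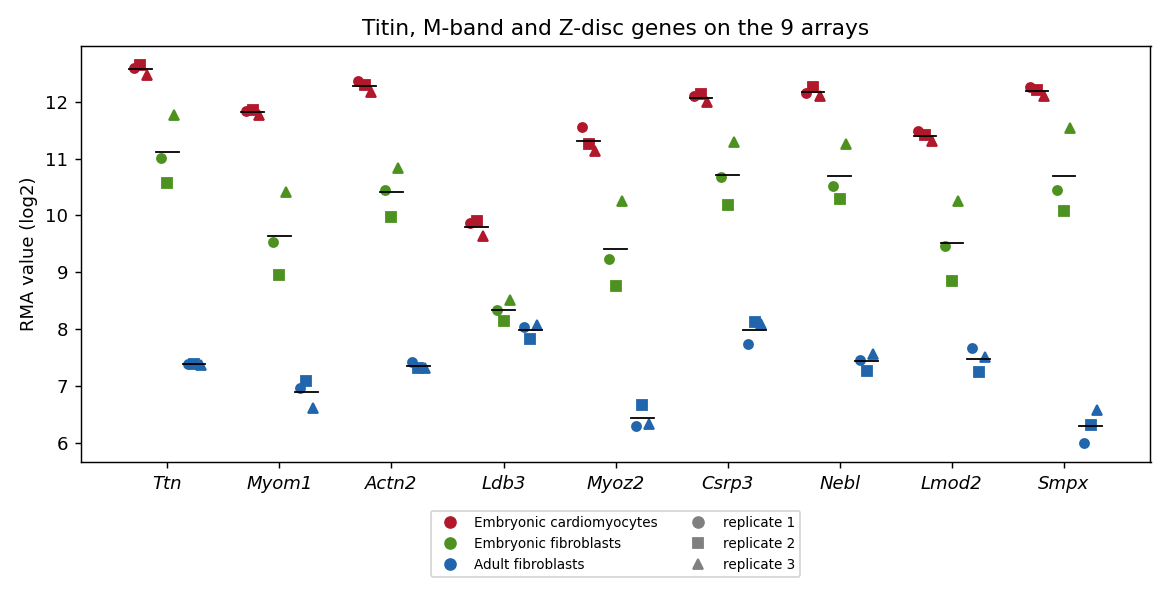
RMA values (log2) of the 9 genes on each of the 9 arrays, with colours for the groups, marker shapes for the replicates and a black line for the mean of 3 arrays. The groups are separate for every gene; among the embryonic fibroblasts replicate 3 (triangles) is highest and replicate 2 (squares) lowest each time.

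Ttn encodes titin itself. Its values were 12.60, 12.65 and 12.47 in cardiomyocytes, 11.01, 10.57 and 11.77 in embryonic fibroblasts, and 7.39, 7.39 and 7.37 in adult fibroblasts. On the log2 scale the embryonic fibroblast arrays thus lay closer to the cardiomyocytes than to the adult cells, which were almost equal to each other. On the linear scale the group mean was nearer to the adult cells. It was 36.4% of the cardiomyocyte value, and the adult mean was 2.74%. Ttn was 2.75-fold higher in cardiomyocytes than in embryonic fibroblasts (1.46 ± 0.24 on the log2 scale, SE, 3 arrays a group, adjusted p = 0.00245). Between embryonic and adult fibroblasts the difference was 13.3-fold (3.73 ± 0.24, adjusted p = 9.31e-06).

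Myom1 encodes myomesin 1, which cross-links thick filaments in the M-band and binds titin there. It read 11.84, 11.85 and 11.77 in cardiomyocytes, 9.53, 8.96 and 10.41 in embryonic fibroblasts and 6.97, 7.08 and 6.62 in the adult ones. Its distance between the embryonic groups was the largest of the 9, at 4.54-fold (2.18 ± 0.30, adjusted p = 0.000979), and it ranked 11 of all 19933 genes in that comparison. The difference between the fibroblast groups was 6.71-fold (2.75 ± 0.30, adjusted p = 0.000218). The related myomesin genes did not follow: Myom2 differed by 0.22 ± 0.08 (adjusted p = 0.104) and Myom3 by 0.00 (adjusted p = 0.998) between the embryonic groups.

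Actn2 encodes the sarcomeric alpha-actinin that cross-links thin filaments in the Z-disc. Cardiomyocyte values were 12.37, 12.29 and 12.17, embryonic fibroblast values 10.45, 9.97 and 10.83, and adult fibroblast values 7.43, 7.31 and 7.32. The middle group stood 1.86 ± 0.18 below the cardiomyocytes (3.64-fold, adjusted p = 0.000212) and 3.06 ± 0.18 above the adult fibroblasts (8.36-fold, adjusted p = 5.55e-06). The latter adjusted p was the lowest of the 9 genes in that comparison.

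Ldb3 encodes a PDZ and LIM domain protein, also called cypher or ZASP, that binds alpha-actinin at the Z-disc. It read 9.86, 9.90 and 9.64 in cardiomyocytes, 8.33, 8.15 and 8.51 in embryonic fibroblasts and 8.03, 7.83 and 8.07 in adult fibroblasts. Here the embryonic fibroblasts lay just above the adult cells, with a gap of only 0.08 between the nearest arrays. The drop from cardiomyocytes was 2.77-fold (1.47 ± 0.12, adjusted p = 7.32e-05), close in size to that of titin. The difference between embryonic and adult fibroblasts did not pass the test (0.36 ± 0.12, 95% interval 0.09 to 0.62, adjusted p = 0.0636). Without embryonic fibroblast replicate 2 it was 0.44 with an adjusted p of 0.0431, and over all alternatives the adjusted p ran from 0.0431 to 0.198.

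Myoz2 encodes calsarcin-1, a Z-disc protein that binds alpha-actinin and the phosphatase calcineurin. The cardiomyocyte arrays gave 11.55, 11.25 and 11.14, the embryonic fibroblasts 9.23, 8.76 and 10.26, and the adult fibroblasts 6.29, 6.67 and 6.33. Its embryonic fibroblast arrays had the widest spread of the 9 genes (SD 0.77). The differences were 3.73-fold from cardiomyocytes to embryonic fibroblasts (1.90 ± 0.32, adjusted p = 0.00271) and 7.90-fold from embryonic to adult fibroblasts (2.98 ± 0.32, adjusted p = 0.000195).

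Csrp3 encodes muscle LIM protein, a Z-disc-associated protein linked to mechanical signalling in muscle. It read 12.10, 12.13 and 11.99 in cardiomyocytes, 10.67, 10.18 and 11.30 in embryonic fibroblasts and 7.74, 8.12 and 8.09 in adult fibroblasts. With the kept probes it had the smallest difference between the embryonic groups of the 9, 2.57-fold (1.36 ± 0.24, adjusted p = 0.00318). Embryonic fibroblasts exceeded adult ones 6.65-fold (2.73 ± 0.24, adjusted p = 5.38e-05).

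Nebl encodes nebulette, a cardiac actin-binding protein of the Z-disc region. Its kept probe gave 12.16, 12.26 and 12.11 in cardiomyocytes, 10.52, 10.29 and 11.26 in embryonic fibroblasts and 7.46, 7.27 and 7.57 in adult fibroblasts. The steps were 2.80-fold (1.48 ± 0.21, adjusted p = 0.0012) and 9.57-fold (3.26 ± 0.21, adjusted p = 9.67e-06). The second Nebl probe ran in the same direction with smaller differences, 0.92 and 0.68. With the mean of both probes, the difference between the embryonic groups was 1.20 in place of 1.48, below that of Csrp3, and the difference between the fibroblast groups was 1.97 in place of 3.26. The platform annotation lists different transcripts for the 2 probes.

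Lmod2 encodes leiomodin-2, an actin nucleator that acts on the pointed ends of thin filaments. Values of 11.49, 11.42 and 11.31 in cardiomyocytes compared with 9.46, 8.85 and 10.26 in embryonic fibroblasts and 7.66, 7.25 and 7.51 in adult fibroblasts. On the log2 scale the embryonic fibroblasts were about midway, 1.88 ± 0.29 below the cardiomyocytes (3.69-fold, adjusted p = 0.00173) and 2.05 ± 0.29 above the adult cells (4.14-fold, adjusted p = 0.000959).

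Smpx is an X-linked gene for a small protein of striated muscle. It read 12.26, 12.20 and 12.10 in cardiomyocytes, 10.45, 10.08 and 11.54 in embryonic fibroblasts and 5.99, 6.31 and 6.57 in adult fibroblasts. Smpx spanned the widest range of the 9 genes and ranked 3 of 19933 by the difference between cardiomyocytes and adult fibroblasts (59.6-fold, 5.90 ± 0.32, adjusted p = 1.06e-06). The difference between the embryonic groups was 2.83-fold (1.50 ± 0.32, adjusted p = 0.00862), and that between the fibroblast groups was 21.1-fold (4.40 ± 0.32, adjusted p = 1.76e-05).

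The sizes of the 2 steps were compared within the fit, as the distance between the embryonic groups minus the distance between the fibroblast groups, a contrast added after the data were seen. A negative value means that the embryonic fibroblasts lay nearer to the cardiomyocytes than to the adult fibroblasts on the log2 scale. The fit shares 1 estimate of spread over the 3 groups, but the embryonic fibroblasts, which weigh most in this contrast, spread most. The median SD of the 9 genes was 0.60 there, against 0.09 in cardiomyocytes and 0.21 in adult fibroblasts. The SE and p-values of the contrast may thus be too small, and a separate spread per group was not fitted. Across all genes 5.28% had a negative value that passed the test and 2.55% a positive one. Of the 9 genes, 8 had a negative value and 3 of them passed: Smpx (-2.90 ± 0.55, adjusted p = 0.0124), Ttn (-2.27 ± 0.42, adjusted p = 0.0106) and Nebl (-1.77 ± 0.37, adjusted p = 0.0187). Nebl did not pass with the mean of its probes (-0.76, adjusted p = 0.167) or without embryonic fibroblast replicate 1 (adjusted p = 0.0525), and over all alternatives its adjusted p ran from 0.00749 to 0.167. Ldb3 was the gene with a positive value (1.11 ± 0.20, adjusted p = 0.00998), but it did not pass without embryonic fibroblast replicate 1 or 2 (adjusted p = 0.0509 and 0.0575, with a range of 0.00111 to 0.0575). Actn2 and Csrp3 did not pass (-1.20, adjusted p = 0.0509; -1.37, adjusted p = 0.0807), and both passed without embryonic fibroblast replicate 2 (adjusted p = 0.00707 and 0.0216, with ranges of 0.00707 to 0.173 and 0.0216 to 0.206). Actn2 also passed after quantile normalization (adjusted p = 0.0309) and without dim genes (adjusted p = 0.0423). Neither did Myoz2, Myom1 and Lmod2 (-1.08, -0.56 and -0.16). With single arrays left out, Myoz2 ran from -1.74 to -0.24, the latter without embryonic fibroblast replicate 3. RMA values have no zero, and how far compression of low values shortens the second step was not tested.

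**Figure D2:**
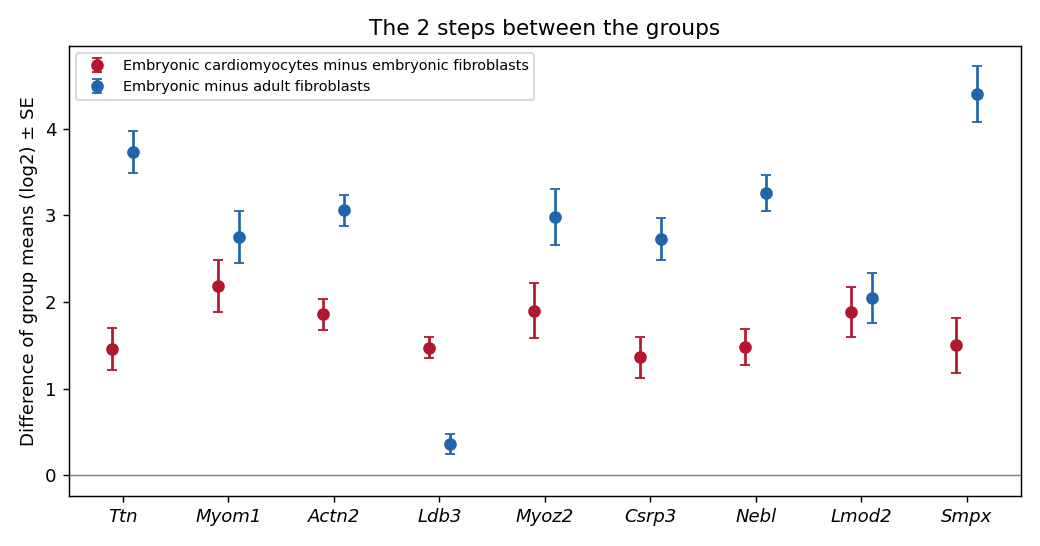
Differences of group means (log2, ± SE) of the 9 genes: cardiomyocytes minus embryonic fibroblasts in red, embryonic minus adult fibroblasts in blue. The red points lie between 1.36 and 2.18; the blue points run from 0.36 for Ldb3 to 4.40 for Smpx.

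The 250 bases before each RefSeq start (GRCm38.p6) were searched on both strands for motifs of muscle regulators and for TATAAA. The 9 genes have 14 annotated starts, and 32841 promoters of all genes were searched in the same way. The motifs were chosen with the promoter letters already seen, so the shares below are descriptive and test no excess. The MEF2 motif, bound by a family of muscle transcription factors, was found before Ttn and Myoz2, in 2 of 14 starts against 2.92% of all promoters. The CArG box, the site of serum response factor, was found before Myom1, Ldb3 and 1 start of Nebl, in 4 of 14 starts against 1.47% of all promoters. Of these 4, the 2 of Ldb3 come from overlapping windows that hold the same box. CATTCC, bound by TEAD factors, was present at 1 Nebl start (12.6% of all promoters), and TNAAGTG, bound by NKX2-5, at 1 Csrp3 start (10.1%). The exact letters TATAAA were at 0 of 14 starts, against 12.4%. Variants of these letters were not searched, so TATA-like stretches, such as that within the MEF2 match of Myoz2, were not counted. Within a promoter no match overlapped one of another searched motif. No motif was common to the 9 genes: the CArG box reached the most, 3 of them. None of the searched motifs was found before Actn2, Lmod2 or Smpx. The stretches below carry the MEF2 or CArG letters of Ttn, Myoz2, Ldb3 and Myom1, in capitals. They are written 5′ to 3′ on the strand of the gene and end at the base before the start. They lie at chr2:76982548-76982747 (minus strand), chr3:123034988-123035137 (minus), chr14:34588682-34588831 (minus) and chr17:71019407-71019556 (plus). A match describes letters only, and binding was not measured.
Ttn: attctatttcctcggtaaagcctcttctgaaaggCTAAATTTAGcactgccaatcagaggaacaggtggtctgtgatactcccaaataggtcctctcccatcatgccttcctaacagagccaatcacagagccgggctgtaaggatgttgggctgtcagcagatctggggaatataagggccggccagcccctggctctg
Myoz2: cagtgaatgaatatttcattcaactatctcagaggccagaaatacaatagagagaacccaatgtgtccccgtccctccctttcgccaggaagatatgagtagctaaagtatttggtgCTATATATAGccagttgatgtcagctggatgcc
Ldb3: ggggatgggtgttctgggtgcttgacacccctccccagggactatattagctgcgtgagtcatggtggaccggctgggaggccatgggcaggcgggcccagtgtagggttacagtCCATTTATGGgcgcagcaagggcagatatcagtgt
Myom1: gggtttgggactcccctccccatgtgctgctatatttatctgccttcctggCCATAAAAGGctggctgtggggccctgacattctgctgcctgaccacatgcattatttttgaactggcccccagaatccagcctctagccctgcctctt

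Counted from the start, the first base of the match was at -166 in Ttn, -33 in Myoz2, -35 in Ldb3 and -99 in Myom1. Among genes with the same motif the expression values were not alike in size. Ttn and Myoz2, with a MEF2 match, differed by 3.73 and 2.98 between the fibroblast groups, and Ldb3, Myom1 and Nebl, with a CArG match, by 0.36, 2.75 and 3.26. Of the regulators that bind these letters, Mef2c was higher in cardiomyocytes than in embryonic fibroblasts (0.68, adjusted p = 0.0276) and higher in embryonic than adult fibroblasts (0.99, adjusted p = 0.00448). Mef2a and Mef2d, also of the MEF2 family, did not pass in either comparison (0.02 and 0.18 for Mef2a, 0.06 and -0.10 for Mef2d). Srf, the gene of serum response factor, differed by 0.02 between the embryonic groups (adjusted p = 0.914) and was higher in embryonic than adult fibroblasts (0.51, adjusted p = 0.00343). Myocd, the gene of its coactivator myocardin, was higher in cardiomyocytes by 1.66 (adjusted p = 0.00102) and in embryonic over adult fibroblasts by 1.10 (adjusted p = 0.00838). For the other searched motifs, Tead1, of the TEAD factors, did not pass in either comparison (0.33, adjusted p = 0.0886, and 0.08, adjusted p = 0.675). Nkx2-5 did not pass either (0.05 and 0.02, adjusted p = 0.813 and 0.935). Mef2a, Mef2d, Srf, Tead1 and Nkx2-5 are named here after their values were seen.

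In the embryonic fibroblasts the 9 genes varied together. Replicate 3 was the highest and replicate 2 the lowest in 9 of 9, an order found in 14.6% of all genes. From replicate 2 to replicate 3 the gap ran from 0.35 for Ldb3 to 1.50 for Myoz2, with a median of 1.20. The SD of this group had a median of 0.60, against 0.09 in the cardiomyocytes and 0.21 in the adult fibroblasts. On the linear scale the embryonic fibroblasts held between 22.0% (Myom1) and 39.0% (Csrp3) of the cardiomyocyte value. Titin alone read 33.8%, 24.9% and 57.1% on the 3 arrays, and Smpx 29.9%, 23.2% and 63.9%. The adult fibroblasts held from 1.68% (Smpx) to 6.55% (Lmod2) in 8 genes and 28.2% in Ldb3, where the probe's floor is unknown.

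Other cardiomyocyte markers moved with them. Of the 12 fixed markers 11 had the same order of embryonic fibroblast replicates. Their summed value (log2 of the sum) was 15.79, 15.50 and 15.98 on these arrays, against 16.52 to 16.60 in the cardiomyocytes and 11.78 to 12.60 in the adult fibroblasts. For the 9 genes the sum was 13.33, 12.91 and 14.09, against 14.98 to 15.13 and 10.51 to 10.56. As a share of the cardiomyocyte value, the markers lay between 27.6% (Ryr2) and 81.1% (Myl2) in the embryonic fibroblasts, and 3 of them, Tnnt2, Actc1 and Myl2, did not pass the test between the embryonic groups (0.44, 0.34 and 0.30, adjusted p = 0.328, 0.298 and 0.537), although their groups did not overlap. The shared spread of these 3 took in the adult fibroblasts, whose SDs were 0.68, 0.46 and 0.68. In the cardiomyocytes the SDs were 0.06, 0.02 and 0.06, and in the embryonic fibroblasts 0.10, 0.17 and 0.18. Their SE between the embryonic groups may thus be too large, and not passing does not show equal levels. The cardiomyocyte means of these 3 probes were 13.82, 13.73 and 13.66, near the highest value of the table (14.197), and how far a ceiling of the arrays raises their shares was not tested. Macrophage markers had the same order of replicates in 7 of 8 cases (sums 11.90, 11.57 and 12.16), whereas fibroblast markers had it in 2 of 10 and endothelial markers in 0 of 8. The fibroblast marker sum was 14.05, 13.90 and 13.85. The part of other cell types in these values was not tested. Of all genes 11.1% were called higher and 10.3% lower in cardiomyocytes than in embryonic fibroblasts. In embryonic against adult fibroblasts these shares were 11.2% and 8.34%. Skeletal muscle markers cover fibres that would also express titin. They were called higher in cardiomyocytes in 2 of 12 cases (Tnni2 and Mylpf), and in 1 case in embryonic over adult fibroblasts. Their sum was 11.61 to 11.64 in cardiomyocytes, above the 11.20 to 11.29 of the embryonic and the 11.20 to 11.32 of the adult fibroblasts. Red cell markers were called higher in cardiomyocytes than in embryonic fibroblasts in 3 of 5 cases, with sums of 12.92 to 13.32 against 11.77 to 11.86. Smooth muscle and pericyte markers were higher in 1 and lower in 3 of 8, and epicardial and mesothelial markers lower in 2 of 7. Endothelial markers were lower in cardiomyocytes than in embryonic fibroblasts in 7 of 8 cases and macrophage markers in 6 of 8. In embryonic against adult fibroblasts, red cell markers were higher in 3 of 5 and epicardial and mesothelial markers in 4 of 7. Macrophage markers were lower in 3 of 8, fibroblast markers higher in 1 and lower in 6 of 10, endothelial markers higher in 2 and lower in 1 of 8, and smooth muscle and pericyte markers higher in 3 and lower in 2 of 8. RMA values have no zero, so no marker can be called absent.

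**Figure D3:**
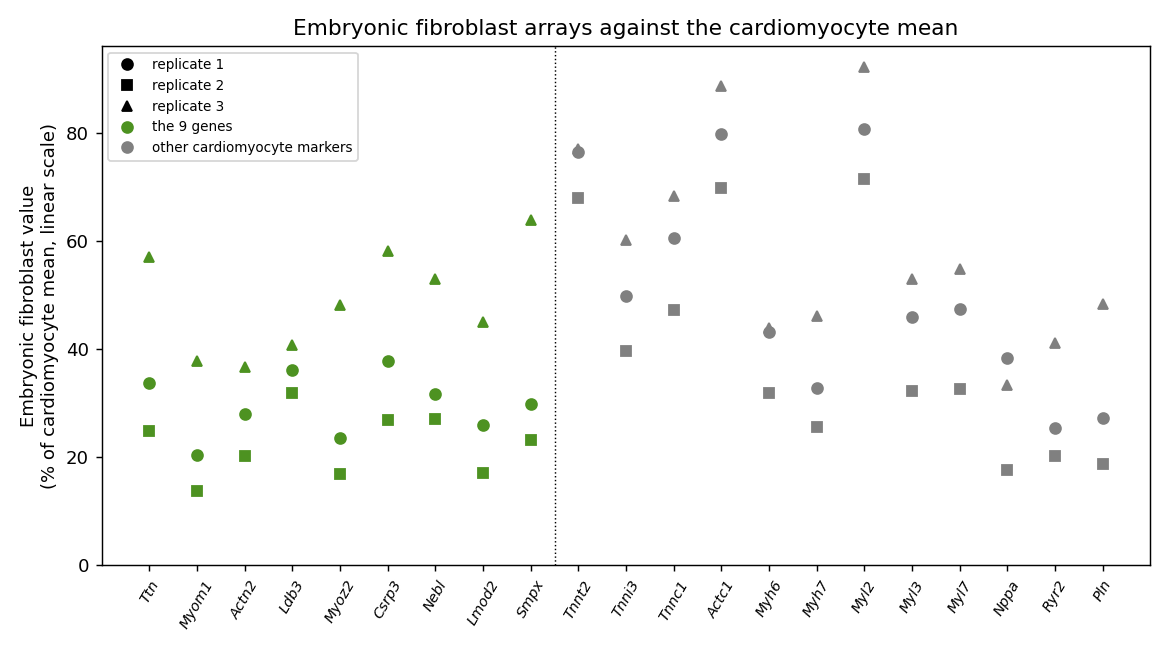
Each embryonic fibroblast array as a percentage of the cardiomyocyte mean on the linear scale, for the 9 genes (green, left of the dotted line) and 12 other cardiomyocyte markers (grey), with marker shapes for replicates. Replicate 2 is lowest for every gene shown; group means of the 9 genes run from 22.0% to 39.0%, and those of the markers from 27.6% to 81.1%.

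Over the 9 arrays the 28 pairs of genes that leave out Ldb3 correlated at 0.962 to 0.998 (Pearson), and the 8 pairs with Ldb3 at 0.813 to 0.929. These values describe points in 3 clusters that share arrays, and they follow mostly from the group means. The genes outside the 9 whose profile was most like the average of the 9 were Ryr2, the calcium release channel of the sarcoplasmic reticulum (r = 0.9994 over 9 arrays), and Trim55, a titin-binding ubiquitin ligase of the M-band (0.9985). They were followed by Mdh1, a malate dehydrogenase (0.9981), Pcbd2 (0.9976), the insulin receptor gene Insr (0.9975) and Pgam2, the muscle phosphoglycerate mutase (0.9975). Their differences between the embryonic groups were 1.86, 2.0, 1.43, 0.83, 0.72 and 1.57. The correlation itself takes no account of the size of a difference.

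Among 20 measured partners of titin and of the M-band, 12 were higher and 1 lower in cardiomyocytes than in embryonic fibroblasts (median 0.56). Embryonic fibroblasts exceeded adult ones in 8 and fell below in 0 (median 0.27). Of all genes 11.1% were higher and 10.3% lower in the first comparison, and 11.2% and 8.34% in the second. The same shares stand beside the counts of the lists below. Trim55 read 11.55, 11.72 and 11.42 in cardiomyocytes, 9.39, 8.96 and 10.33 in embryonic fibroblasts and 6.64, 6.95 and 6.78 in the adult ones, with the same order of replicates as titin. Its steps were 2.0 ± 0.28 (adjusted p = 0.00118) and 2.77 ± 0.28 (adjusted p = 0.000151). Ankrd1, a stress-responsive protein that binds the titin spring region, was higher by 1.42 in cardiomyocytes and by 3.22 ± 0.18 in embryonic over adult fibroblasts (adjusted p = 3.54e-06). Cmya5, which encodes myospryn, differed by 1.78 ± 0.12 between the embryonic groups (adjusted p = 4.80e-05) and by 0.16 between the fibroblast groups (adjusted p = 0.422). Mybpc3, the cardiac myosin-binding protein C, and the ubiquitin ligase gene Trim63 were each 1.69 higher in cardiomyocytes, and 1.40 and 1.27 higher in embryonic than adult fibroblasts. Rbm20, the splicing factor that acts on titin transcripts, was higher in cardiomyocytes by 1.45 (adjusted p = 0.000186) and in embryonic over adult fibroblasts by 0.87 (adjusted p = 0.00172). The member that was lower in cardiomyocytes was Ankrd2 (-0.30, adjusted p = 0.0376), a call lost with the replicate block, where 0 were lower. Tcap, which caps titin at the Z-disc, was 0.93 higher in cardiomyocytes (adjusted p = 0.00318). Ankrd2, Tcap and Rbm20 are named here after their values were seen.

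Of 23 other Z-disc genes, 13 were higher and 1 lower in cardiomyocytes than in embryonic fibroblasts (median 0.44), and 10 were higher and 1 lower in embryonic than adult fibroblasts (median 0.25). The largest differences between the embryonic groups were those of Jph2, a junctional membrane protein (1.72 ± 0.20, adjusted p = 0.000418), Nrap, an anchoring protein of nascent myofibrils (1.48 ± 0.17, adjusted p = 0.000378), the intermediate filament gene Des (1.07 ± 0.14) and the chaperone gene Cryab (1.07 ± 0.24). Pdlim3 and Cavin4 showed another pattern. They differed by -0.15 and -0.09 between the embryonic groups (adjusted p = 0.751 and 0.812) but exceeded the adult level in embryonic fibroblasts by 2.12 ± 0.24 and 1.46 ± 0.19 (adjusted p = 0.000263 and 0.000575). Bag3 was the gene that was lower in cardiomyocytes (-0.66, adjusted p = 0.0410), a call lost without embryonic fibroblast replicate 3, where 0 were lower, and Synpo2 the one that stood lower in embryonic fibroblasts than in adult ones (-0.73, adjusted p = 0.00411). Myoz1, the skeletal relative of Myoz2, was 0.55 higher in cardiomyocytes than in embryonic fibroblasts (adjusted p = 0.00172), and Myoz3 differed by -0.01 (adjusted p = 0.967). Bag3, Synpo2, Myoz1 and Myoz3 are likewise named after their values were seen, as were Myom2 and Myom3 above.

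Of 10 regulators of thin filament length, 4 were higher and 1 lower in cardiomyocytes than in embryonic fibroblasts, and 4 were higher and 0 lower in embryonic than adult fibroblasts. Tmod1, the tropomodulin that caps the thin filament's pointed end where leiomodin-2 also acts, was 1.69 ± 0.17 higher in cardiomyocytes (adjusted p = 0.000272). Klhl41 (1.86 ± 0.22) was higher too. Lmod3, a relative of Lmod2, was 0.74 ± 0.12 higher in embryonic than adult fibroblasts (adjusted p = 0.00261). Tmod3, the tropomodulin of nonmuscle cells, went the other way: 9.85, 9.22 and 9.40 in cardiomyocytes, 11.46, 11.46 and 11.08 in embryonic fibroblasts and 11.63, 11.73 and 11.89 in adult fibroblasts. It was 3.60-fold lower in cardiomyocytes than in embryonic fibroblasts (-1.85 ± 0.17, adjusted p = 0.000148).

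A list of relatives of the 9 genes and of other sarcomere genes, which serve outside the sarcomere too, was divided. Of 13 measured, Tmod3 included, 1 was higher and 4 were lower in cardiomyocytes than in embryonic fibroblasts (median -0.17), and 4 were higher and 1 lower in embryonic than adult fibroblasts (median 0.09). Among the alpha-actinins, Actn1 was lower in cardiomyocytes than in embryonic fibroblasts (-0.70 ± 0.21, adjusted p = 0.0447) and higher in embryonic than adult fibroblasts (1.47 ± 0.21, adjusted p = 0.00114). Actn4 differed by -0.33 and 0.09 in these comparisons and did not pass (95% intervals -0.83 to 0.17 and -0.41 to 0.59). For the LIM proteins, Csrp1 and Csrp2 differed by 0.06 and 0.25 between the embryonic groups, without passing (adjusted p = 0.832 and 0.214), and exceeded the adult level in embryonic fibroblasts by 0.86 and 1.22 (adjusted p = 0.00234 and 0.000162). Lasp1, a relative of nebulette in focal adhesions, had the opposite order to Nebl. It stood lower in cardiomyocytes than in embryonic fibroblasts (-0.81 ± 0.19, adjusted p = 0.0137), and these in turn lay below the adult cells (-0.62 ± 0.19, adjusted p = 0.0468). Without embryonic fibroblast replicate 3, 0 relatives were called lower between the fibroblast groups, so this call of Lasp1 was lost.

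Flna, the filamin of nonmuscle cells, was lower in cardiomyocytes than in embryonic fibroblasts (-1.14 ± 0.20, adjusted p = 0.00357). Palld, which encodes the actin-associated palladin, was the relative called higher in both steps, at 1.19 ± 0.11 and 1.64 ± 0.11 (adjusted p = 0.000197 and 1.41e-05). Of the PDZ and LIM genes related to Ldb3, Pdlim1, Pdlim2, Pdlim4 and Pdlim7 differed by -0.17, -0.03, -0.17 and -0.09 between the embryonic groups and by -0.01, -0.10, -0.08 and 0.21 between the fibroblast groups, and did not pass. Lmod1, the smooth muscle leiomodin, did not pass either (-0.19 and 0.05). Whether a gene's difference departs from that of its relative was not tested.

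**Figure D4:**
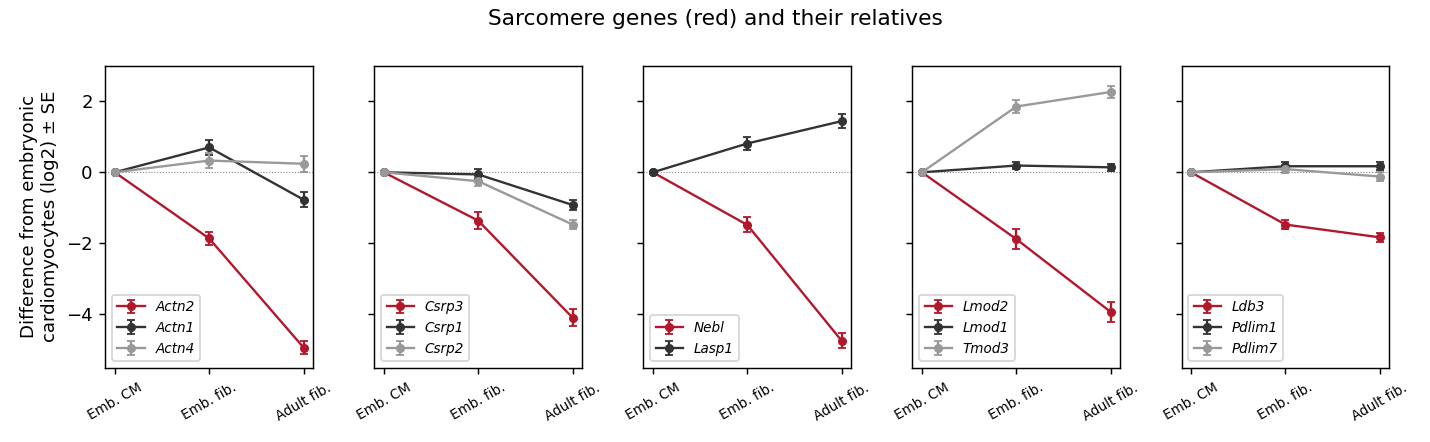
Differences of the group means from the embryonic cardiomyocytes (log2, ± SE) for 5 of the genes (red) and relatives outside the sarcomere (grey and black). The red lines fall in both steps, to 4.93 below the cardiomyocytes for Actn2 and 1.83 below for Ldb3 in the adult fibroblasts, while Tmod3 and Lasp1 lie 2.26 and 1.44 above the cardiomyocytes there.

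Of 17 cardiac transcription regulators, 7 were higher and 0 lower in cardiomyocytes than in embryonic fibroblasts, and 10 were higher and 0 lower in embryonic than adult fibroblasts (medians 0.33 and 0.51). Hey2, a transcriptional repressor within the Notch pathway, had the largest differences (2.39 ± 0.29, adjusted p = 0.000500, and 1.26 ± 0.29, adjusted p = 0.0126). The orphan nuclear receptor gene Esrrg was 1.83 higher in cardiomyocytes than in embryonic fibroblasts, and Smyd1, a muscle methyltransferase that also binds myosin, 1.64 higher.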

How the data were processed

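The log2 expression values are RMA output that the authors deposited, according to the submitters' processing notes; no version is named there. The base of the logarithm is not stated, and the values (2.70 to 14.20) were read as log2. The sources used here do not give a genome build or annotation. The platform annotation supplied gene names: 21776 of 28767 probes had a single symbol, while 1618 with several and 5373 with none stayed out. Symbols were looked up by Entrez identifier in RefSeq (GRCm38.p6), which changed 0. The probe with the highest mean stood for each of 19933 genes.

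One limma model (version 3.58.1, R 4.3.3, two-sided, a mean per group, with eBayes) covered all 9 arrays, with p-values adjusted by Benjamini-Hochberg over all genes and no filter on dim genes. The fit was tested on simulated data. Nothing beyond the submitters' term biological replicates says how separate the samples were, so p-values measure the spread between these samples. The members, lists and tests were chosen with earlier results of these data known, and the motifs with the promoter letters already seen; the contrast of the 2 steps and 3 settings for the lists were added after the data were seen. Named genes are the 9, all relatives outside the sarcomere, up to 4 called genes with the largest difference per list and comparison, and the 6 genes with the most similar profile; others are marked. Figures were drawn with matplotlib 3.10.9. Alternatives were a replicate block, median centring, quantile normalization, a filter on dim genes, the mean of all probes, array weights, limma-trend, fits of 2 groups and leaving out each array.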

Additional observations from a re-analysis of the deposited data

How the results depend on the processing

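Under 17 alternatives, the 27 differences of the 9 genes kept their sign in all 459 values and their side of the threshold in 458. The exception was Ldb3 between the fibroblast groups without embryonic fibroblast replicate 2 (0.44, over a range of 0.27 to 0.44 when single arrays were left out), which made the count of higher genes 9 there. Many of the signs were fixed in advance. The replicate block, the filter on dim genes, limma-trend and fits of 2 groups cannot change a difference of group means. Nor can leaving out an array of a group not compared, and the mean of all probes can change Nebl alone. In these cases only the adjusted p could move. Whether replicate numbers pair the arrays cannot be told from 3 arrays a group. Deviations of same-numbered arrays correlated from -0.195 to 0.198, and those of arrays with different numbers from -0.22 to 0.191. The replicate block changed no call of the 9 genes (1.46 for Ttn between the embryonic groups with it). Over all genes, array weights raised the counts between the embryonic groups to 3362 higher and 3103 lower, and lower genes in embryonic against adult fibroblasts to 2519. Without embryonic fibroblast replicate 2, 1452 genes were higher in cardiomyocytes (1452 to 2830 over single arrays left out). For the lists, with settings added after the data were seen, the replicate block gave 0 titin and M-band partners lower in cardiomyocytes than in embryonic fibroblasts and 1 lower in embryonic than adult fibroblasts. With replicate 3 of the embryonic or of the adult fibroblasts left out, lower titin and M-band partners numbered 1 to 2 between the embryonic groups and 0 to 2 between the fibroblast groups. Lower other Z-disc genes numbered 0 to 1 between the embryonic groups, 2 under either setting between the fibroblast groups, and 1 to 2 in cardiomyocytes against adult fibroblasts. Lower relatives outside the sarcomere numbered 0 to 1 between the fibroblast groups and 2 to 4 in cardiomyocytes against adult fibroblasts. The difference between the steps changed sign without passing for Lmod2 with array weights (0.31) and, without embryonic fibroblast replicate 3, for Lmod2 (0.57, over a range of -0.84 to 0.57 with single arrays left out) and Myom1 (0.22, over -1.24 to 0.22). The causes were not tested. Centring and quantile normalization moved the median of all genes by under 0.1. RMA values hold no signal over background, so how far the low adult values lie above it is unknown.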
